A study of Mus musculus with 24 samples.

Results

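The genes described here encode the proteins of the cytosolic ribosome in mouse fibroblasts. They were chosen by name: every probe set of the array whose only annotated gene symbol was Rpl or Rps followed by digits, with an optional final a, l or x, together with Rplp0, Rplp2 and Rpsa. This gave 99 probe sets for 45 genes, 21 of the small and 24 of the large subunit, out of 45037 probe sets and 18193 genes on the array. A further 28 ribosomal protein symbols, among them Rpl5, Rpl10, Rpl32 and Rplp1, appeared only on probe sets that name several genes, and are not described.

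The cells were NIH-3T3, an established line of mouse fibroblasts, short of confluence when fresh medium was given. Total cellular RNA was measured on 24 one-colour Affymetrix arrays in 7 groups. All groups got fresh medium at the start. At 1 h there were 4 arrays each of mock-treated cells, cells with 100 U/ml IFN-alpha and cells with 100 U/ml IFN-gamma, all given 200 µM 4-thiouridine (4sU, a nucleoside that cells build into new RNA) for the whole hour, and 3 arrays of mock-treated cells without 4sU. At 3 h there were 3 arrays each of mock, IFN-alpha and IFN-gamma at the same 100 U/ml, given 500 µM 4sU from 150 to 180 min. The labels do not say whether replicates were separate cultures, so p-values cover only variation among the arrays at hand, which may be technical. In RNA of a whole culture, fewer cells and less RNA per cell cannot be told apart. All 10 fibroblast markers averaged above a log2 value of 4, with Vim at 13.81, while epithelial, endothelial, muscle and germ cell markers all averaged below it and of 7 leukocyte markers Cd14 alone passed it, at 5.35.

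Each ribosome joins a small subunit, which reads the mRNA, and a large subunit, which forms the peptide bonds. Growing fibroblasts make the subunit proteins in near equal amounts from very abundant, long-lived mRNAs. These mRNAs typically begin with an unbroken run of C and T (C and U in the RNA), the 5′ terminal oligopyrimidine or TOP motif, through which the TOR kinase pathway and the RNA-binding protein Larp1 control their translation more than their amount. Interferons signal through Stat factors, which bind ISRE and GAS elements in the promoters of their target genes.

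Such a run stood at the annotated start of some of these genes and not of others. The sequences below are from RefSeq for the mouse build GRCm38.p6, 40 bases before and 20 after an annotated start, read 5′ to 3′ on the gene's strand. Capitals mark the longest run of C and T that touched the 10 bases on either side of that start. Rps10 holds the only probe set that passed the test in any comparison, Rps9, Rplp2 and Rpl11 were among those that read low on 5 arrays, Rps6 was lower in 3 h mock cells at an unadjusted p only, and Rps2 and Rps28 differed little across arrays. The windows are chr17:27635225-27635284 (minus strand) for Rps10, chr7:3704001-3704060 (plus) for Rps9, chr7:141447611-141447670 (plus) for Rplp2, chr4:136053374-136053433 (minus) for Rpl11, chr4:86857348-86857407 (minus) for Rps6, chr17:24720023-24720082 (plus) for Rps2 and chr17:33824543-33824602 (minus) for Rps28.
Rps10: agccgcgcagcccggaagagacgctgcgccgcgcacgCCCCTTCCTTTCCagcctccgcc
Rps9: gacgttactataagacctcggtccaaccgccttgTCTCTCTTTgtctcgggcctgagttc
Rplp2: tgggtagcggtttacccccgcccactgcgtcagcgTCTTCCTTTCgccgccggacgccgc
Rpl11: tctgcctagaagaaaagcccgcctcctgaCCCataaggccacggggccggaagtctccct
Rps6: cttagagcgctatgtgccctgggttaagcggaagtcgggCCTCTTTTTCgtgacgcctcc
Rps2: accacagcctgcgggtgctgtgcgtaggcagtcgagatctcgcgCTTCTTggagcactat
Rps28: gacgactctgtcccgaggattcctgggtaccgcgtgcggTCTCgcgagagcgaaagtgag
The run was 13 bases in Rps10, 10 in Rplp2 and Rps6, 9 in Rps9, 6 in Rps2, 4 in Rps28 and 3 in Rpl11. It was also 3 in Rps15 and Rpl41, which read low on the 5 arrays (Rpl41 in 1422623_x_at, its brightest probe set), and in Rps4x, which did not. Genes that read low thus had both long and short runs at the annotated start. Longer runs outside those bases, as in Rpl11, were not counted, and other start sites were not searched. For Rps2 and Rps9 the window lies downstream of the first base of the RefSeq gene, at 24718121 and 3703954. The start used for these genes is thus not the first base of the gene. Promoter windows of 250 bases before to 50 after the start were found for 40 of the 45 genes, 48 windows in all. A run of 8 or more touching the 10 bases on either side of the start was present in 19 of the 48 windows (39.6%), against 13.7% of all 32851 windows in the table.

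The letters of interferon-responsive elements were in a minority of these windows. The ISRE letters (GAAA, any 2 bases, GAAA) were found on either strand in 5 of 48 windows (10.4%), those of Rps19, Rpl27a, Rpl4, Rpl38 and Rps7, against 3.44% of all windows and 14.2% of the 325 windows of genes higher with an interferon at 3 h. The GAS letters TTCNNNGAA were in 3 windows (6.25%), against 8.30% and 11.7%. The ETS-type letters CCGGAAG were in 20 windows (41.7%), including Rps10, Rps6, Rplp2 and Rps2, against 8.86% of all windows. The letters TATAAA were in 5 windows (10.4%, against 13.6%), and the YY1-type letters GATGGCGGC in none (1.03% of all). Motifs were searched separately, so matches may overlap, and a match describes letters, not binding.

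Values are the log2 GCRMA values deposited by the authors, so a difference of 1 is a factor of 2 in signal. Of the 99 probe sets, 91, for 43 genes, were above a log2 value of 4 on at least 3 arrays, as were 19305 of all probe sets. The other 8 stayed below 4 on every array. They included the single probe sets of Rpl3l, the muscle paralog of Rpl3, which read 2.63 to 2.86, and of Rps16, which read 2.15 to 2.23. For each gene the kept probe set with the highest mean stands for the gene. Of these 43, 28 averaged above 13, as did 126 of the 19214 other kept probe sets (0.656%), so most sat near the top of the array's range. The others were not cleared of probe sets with several symbols that carry a ribosomal protein name, 110 on the array. How many of these are among the 126 was not counted.

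On 5 of the 15 arrays of the 1 h cells, many ribosomal protein probe sets read low. These were replicate 2 of mock, IFN-alpha and IFN-gamma with 4sU, and replicates 2 and 3 of mock without 4sU. On the same 5 arrays the gap between the 3′ and 5′ probe sets of beta-actin was 2.22 to 3.43 on the log2 scale, against 0.78 to 1.37 on the other 10 arrays at 1 h and 0.80 to 0.97 at 3 h. The median ribosomal protein gene stood -0.36 to -0.17 from its own mean over the 24 arrays there, against 0.03 to 0.11 and 0.07 to 0.13. The part of RNA quality in this difference was not tested. These arrays lie across groups, and the calls and medians of each comparison that uses them are also given without them, from a fit of the other 19 arrays.

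**Figure D1:**
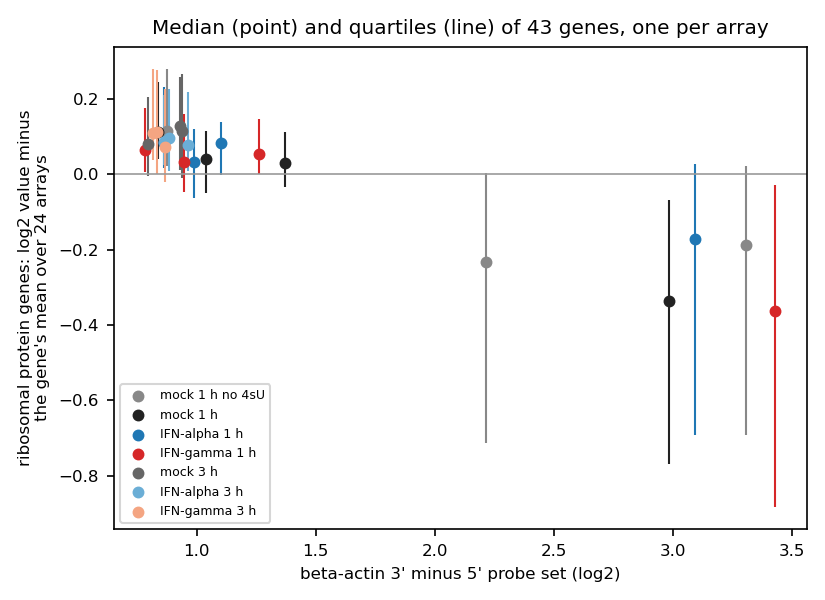
Each point is 1 array, with the gap between the 3′ and 5′ beta-actin probe sets on the x axis (log2) and, on the y axis, the median over 43 ribosomal protein genes of the log2 value minus the gene's mean over 24 arrays; lines span the quartiles and colours the 7 groups. The 5 arrays with a gap over 2 have medians of -0.36 to -0.17, and all other arrays lie above 0.

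The small-subunit gene Rps19, which is mutated in Diamond-Blackfan anaemia, differed most among the 43 genes between the 5 arrays and the other 10 of 1 h. It read 13.55, 11.16 and 10.73 in mock cells without 4sU, 13.52, 10.63, 13.37 and 13.36 in 1 h mock, 13.43, 11.68, 13.48 and 13.43 with IFN-alpha, and 13.47, 10.73, 13.47 and 13.44 with IFN-gamma. At 3 h it read 13.57, 13.59 and 13.56 in mock, 13.56, 13.55 and 13.60 with IFN-alpha and 13.58, 13.59 and 13.63 with IFN-gamma. The 5 low values are the 5 arrays with the wide actin gap, and the other 19 arrays lie within a narrow band in every group.

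Rps9, another small-subunit gene, followed the same arrays in its brightest probe set, 1433689_s_at. Its dimmer probe sets 1426958_at and 1434624_x_at differed by -0.52 and 0.17 between the 5 arrays and the other 10, with overlap. The values of Rps9 that follow are those of 1433689_s_at. It read 12.85, 10.93 and 10.69 without 4sU, 12.95, 11.08, 12.69 and 12.89 in 1 h mock, 12.88, 10.99, 12.98 and 12.91 with IFN-alpha and 12.89, 10.96, 12.74 and 12.82 with IFN-gamma, and 12.95 to 13.07 on all 3 h arrays. Rpl11, a large-subunit protein that also binds Mdm2 and so links ribosome assembly to p53, read 12.71, 11.67 and 10.74 without 4sU, 12.74, 11.21, 12.24 and 12.82 in 1 h mock, 12.75, 11.01, 12.95 and 12.74 with IFN-alpha and 12.70, 10.82, 12.49 and 12.94 with IFN-gamma. Its 3 h values ran from 12.70 to 12.86. For Rps9 1433689_s_at and for Rpl11 the 5 arrays lie below every other array at 1 h, without overlap.

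Stalk proteins recruit translation factors to the large subunit. Rplp2 read 14.00, 12.97 and 12.51 without 4sU, 13.95, 12.86, 13.76 and 13.96 in 1 h mock, 13.95, 12.83, 13.82 and 13.97 with IFN-alpha and 13.98, 12.72, 13.73 and 14.01 with IFN-gamma. Rplp0, the stalk base often used as a reference gene for quantitative PCR, differed less: it averaged 13.63 on the 5 arrays and 14.14 on the other 10. On the 3 h arrays Rplp2 read 13.93 to 14.07 and Rplp0 14.14 to 14.19.

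Other members barely differed. Rps2 averaged 13.48 on the 5 arrays and 13.45 on the 10, Rps4x, the X-linked small-subunit gene, 14.00 and 13.95, and Rps14 13.29 and 13.31. Rpsa, which also serves at the cell surface as a laminin receptor, averaged 12.99 and 13.05. A few probe sets read higher on the 5 arrays: Rpl14 averaged 9.69 against 9.15, Rps25 9.73 against 9.05, and Rpl27a 8.20 against 6.26.

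Counted over genes, 21 of 43 lay wholly below the other 1 h arrays and 5 wholly above. Over probe sets the counts were 38 and 11 of 91, beside 12.9% and 11.2% of all kept probe sets. Differences of more than 1 were found for 8 genes lower and 1 higher, Rpl27a, and for 20 probe sets lower and 2 higher of 91, beside 13.1% and 3.81% of all. Among the 126 other probe sets with a mean above 13, 33.3% lay wholly below and 11.1% were more than 1 lower, against 46.4% and 14.3% of the 28 ribosomal protein genes at that level. Those 126 may include several-symbol probe sets of ribosomal protein genes, so they are not a background free of this family. No test was run on this split, which was made on array quality and not by the study.

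**Figure D2:**
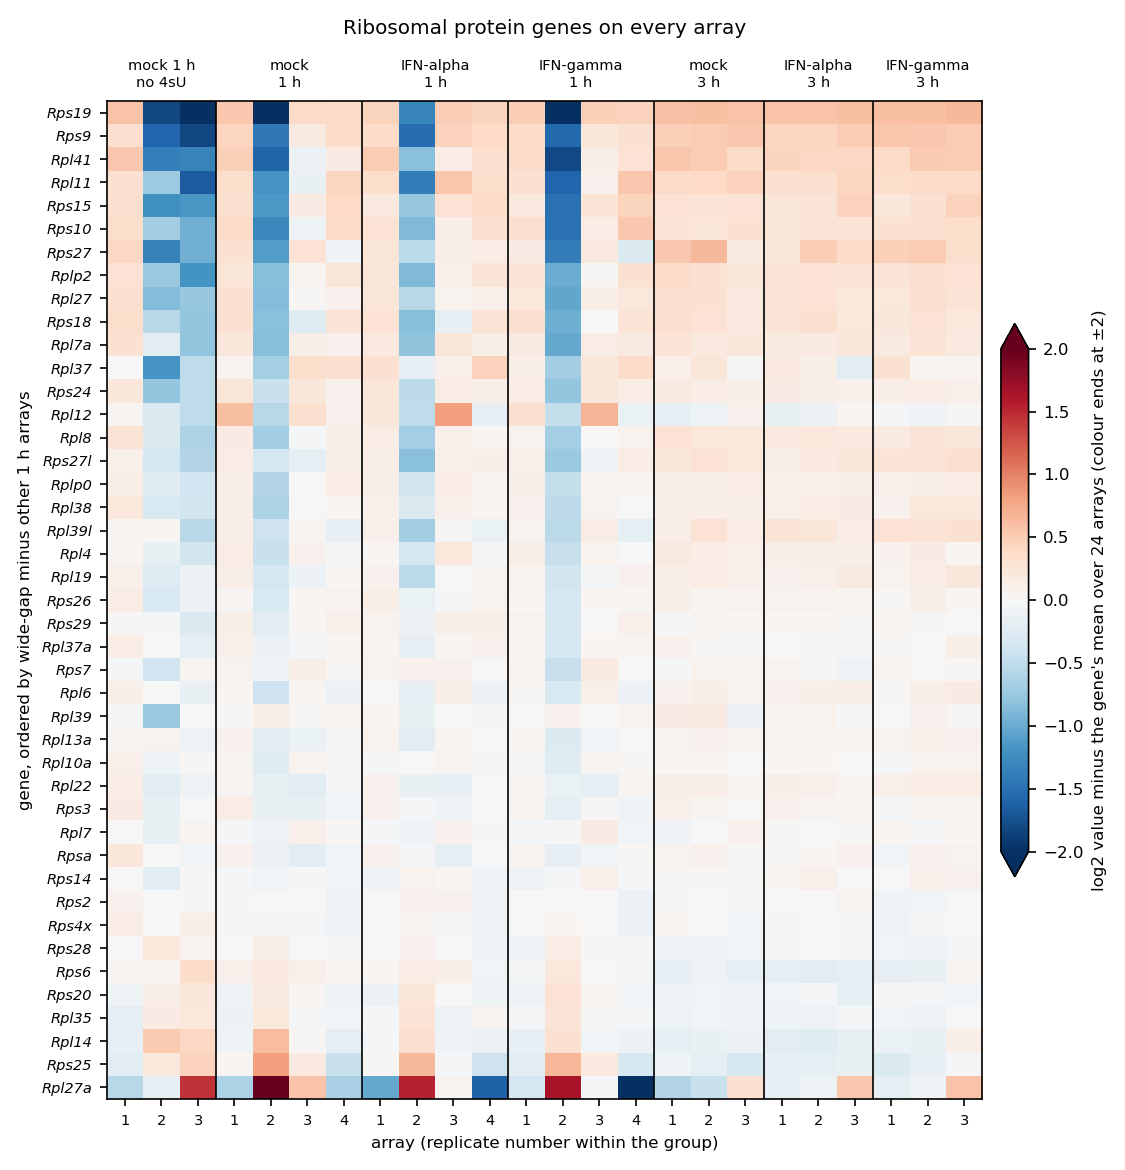
Rows are 43 ribosomal protein genes and columns the 24 arrays by group and replicate number; colour gives the log2 value minus the gene's mean over the 24 arrays. Replicates 2 and 3 without 4sU and replicate 2 of the other groups at 1 h stand out as blue columns from Rps19 downwards, fade by Rps2 and Rps4x, and turn mostly red at Rpl27a; the 9 arrays at 3 h look alike.

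Probe sets of a single gene did not always move together on those arrays. Rps10, a small-subunit gene, has 6 kept probe sets. 1416719_a_at read 13.46, 10.23 and 10.56 without 4sU and 13.48, 10.51, 13.05 and 13.33 in 1 h mock, and differed by -2.72 on average between the 5 arrays and the other 10. 1439374_x_at read 13.35, 13.38 and 13.28 and 13.43, 13.37, 13.35 and 13.41 on the same arrays, and was level throughout. Of the others, 3 differed by -1.41 to -1.34, and 1436384_at, at 4.54 to 6.36, differed by -0.02.

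Of the 19 genes with several kept probe sets, the differences on the 5 arrays lay over 1 apart in 9 and within 0.3 of each other in 5. Rps15 (-1.45 and -1.41), Rps28 (0.14 to 0.21) and Rps14 (-0.04 and -0.02) were among those whose probe sets stayed together. For Rps24 the difference on the 5 arrays ran from -1.65 for 1428530_x_at to 0.35 for 1455195_at, and for Rpl35 from -1.39 for 1416243_a_at to 0.28 for 1436840_x_at. For Rpl13a it ran from -1.13 for 1417608_a_at, all below the other arrays, to -0.14 for 1455001_x_at. For Rpl41 it was -1.67 for 1422623_x_at and -0.27 to -0.21 for its other probe sets, which overlapped the other arrays. For Rps20 it ran from 0.26 for 1456436_x_at to 1.27 for 1421935_at, which was dim at 4.76 on the other arrays. Among the 91 kept probe sets, 39 have names ending in _x_at and 3 in _s_at, a mark by which the manufacturer flags probes that can also pair with related sequences. For a family with many processed pseudogenes, such probe sets may read more than the named gene.

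**Figure D3:**
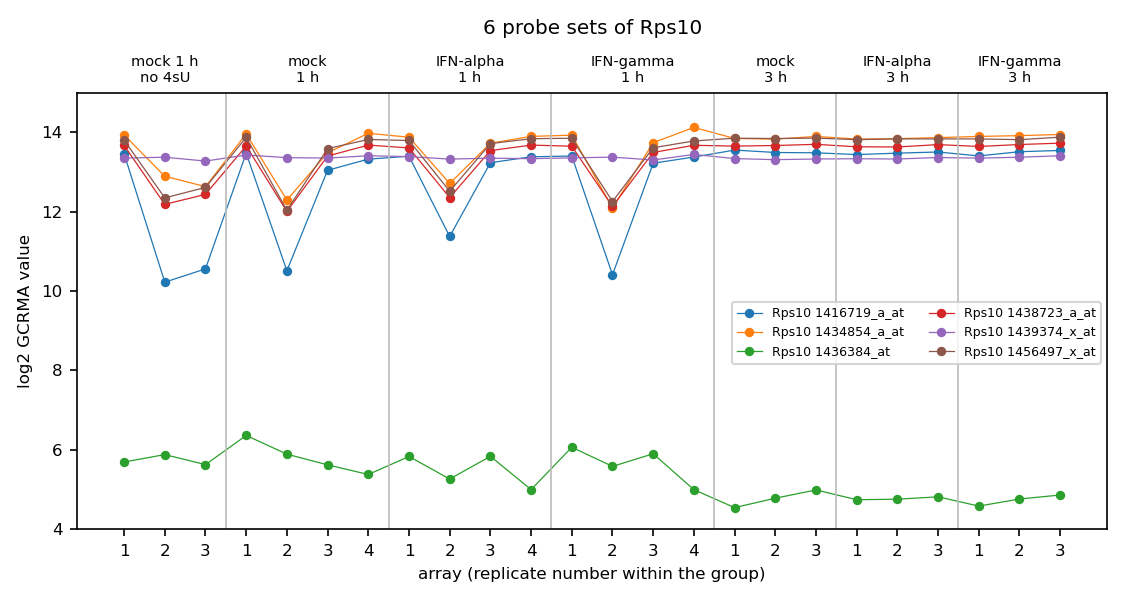
The log2 value (y axis) of the 6 kept Rps10 probe sets on each of the 24 arrays (x axis, replicate number within group). 4 probe sets read lower on the 5 arrays with a wide actin gap, 1416719_a_at the most, 1439374_x_at stays near 13.35 and 1436384_at stays between 4.54 and 6.36.

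Interferon treatment left the ribosomal protein genes without a detectable change at either time. In the limma fit, none of the 91 probe sets passed an adjusted p of 0.05 with IFN-alpha at 1 h, where 0.259% of all 19305 probe sets did, or with IFN-gamma at 1 h (0.492% of all). None passed with IFN-alpha at 3 h (1.55% of all) or with IFN-gamma at 3 h (1.99%). The count at an unadjusted p under 0.05 was 0 of 91 in all 4 comparisons as well, while it was 1.6%, 3%, 3.14% and 4.77% of all probe sets. The median over the 43 genes was 0.03, -0.01, -0.01 and 0.01 on the log2 scale, in that order. Over all kept probe sets it was -0.01, -0.04, -0.06 and -0.05. The counts of 0 come from a fit without a replicate block that pools the spread of all groups, the arrays of wide actin gap included. Its median standard error over the genes at 3 h was 0.197, against 0.066 with the 3 h arrays alone. Such counts are therefore little evidence of stability by themselves.

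Differences within 0.2 either way were found for 40, 42, 42 and 42 of the 43 genes, against 77.5%, 76.2%, 76.5% and 74.5% of all kept probe sets. These shares are not matched for signal level: the median gene averaged 13.28, and the median of the other kept probe sets 6.57. Rpl27a was the gene outside 0.2 in all 4, and with IFN-alpha at 1 h Rpl41, at 0.31 (SE 0.49), and Rps19, at 0.29 (SE 0.68), were outside it as well. Small- and large-subunit genes had medians of 0.03 and 0.03 with IFN-alpha at 1 h, and of 0.01 and 0.01 with IFN-gamma at 3 h. At 1 h no probe set lay wholly above or below mock with IFN-alpha (0.508% and 0.238% of all) or with IFN-gamma (0.746% and 0.565%). At 3 h, with 3 arrays a group, 1 probe set was wholly higher and 6 wholly lower with IFN-alpha (6.21% and 13.4% of all), and 3 and 0 with IFN-gamma (8.31% and 13.2%). The largest of these were Rpl22 1448398_s_at at -0.21 and Rps3 1455600_at at -0.19 with IFN-alpha.

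The precision of the null result differs with the arrays used. In the fit over all 24 arrays the median 95% interval reached 0.36 on either side at 1 h and 0.41 at 3 h, and lay within 1 either way for 38, 38, 37 and 36 of the 43 genes. With the 9 arrays of 3 h alone, the median standard error (SE) was 0.066 and the interval reached 0.15, within 0.5 either way for 42 genes with each interferon. The exception was Rpl27a, and the smallest adjusted p was 0.698 with IFN-alpha and 0.595 with IFN-gamma. Without the 5 arrays of wide actin gap, the 1 h intervals lay within 1 for 42 genes with either interferon, again without Rpl27a. None of the 91 probe sets was called there (0.321% of all with IFN-alpha and 0.596% with IFN-gamma), the medians were 0.01 and 0.0020, and Rpl41 and Rps19 stood at 0.15 and 0.03 with IFN-alpha. Spread within groups at 3 h was small, with a median SD of 0.029 to 0.047 over these genes and of 0.118 to 0.127 over all kept probe sets. The 126 other probe sets with a mean above 13 had medians of 0.034 to 0.052 there, against 0.024 to 0.045 for the 28 ribosomal protein genes at that level. Here, too, those 126 may include several-symbol probe sets of ribosomal protein genes.

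**Figure D4:**
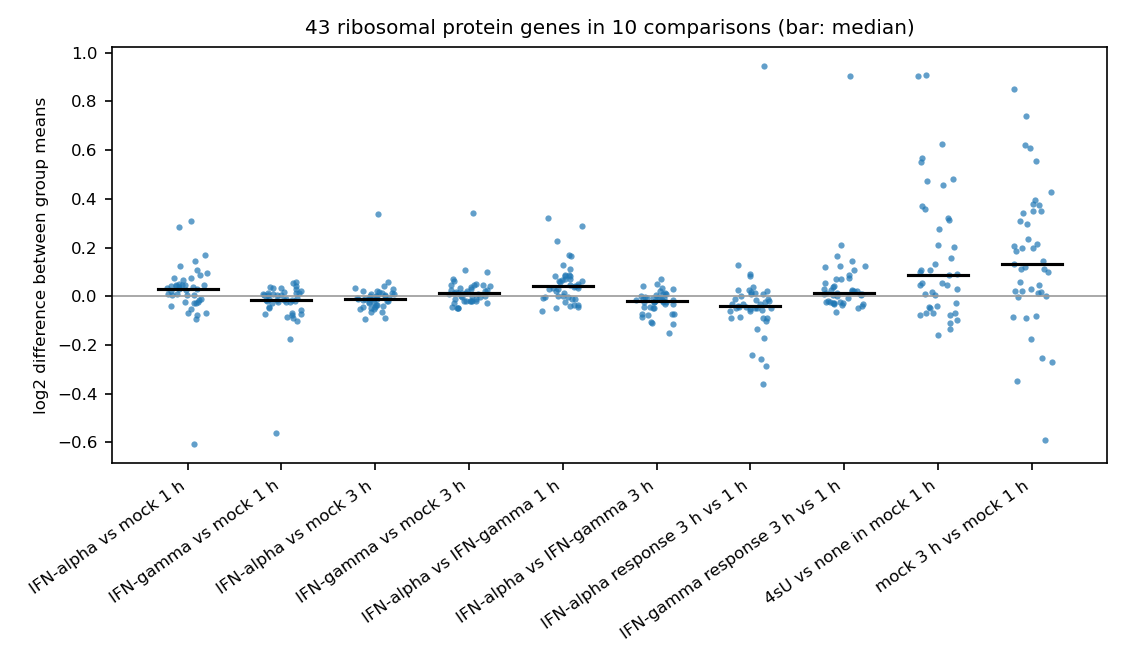
Each point is 1 of 43 ribosomal protein genes, with the log2 difference between group means on the y axis and the 10 comparisons on the x axis; the bar is the median, and points are spread sideways only to be visible. In the comparisons with an interferon the medians lie between -0.04 and 0.04 and the point that stands apart in those against mock and in the changes with time is Rpl27a, but not in the comparisons between interferons; the comparisons of 4sU and of mock times are wider.

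Rpl13a is the member with a known part in the interferon response: it can leave the ribosome after IFN-gamma and silence inflammatory mRNAs as part of the GAIT complex. The brightest of its 4 kept probe sets, 1455485_x_at, read 14.17, 13.87, 13.95 and 14.07 in 1 h mock, 14.16, 13.87, 14.14 and 14.09 with IFN-alpha and 14.13, 13.82, 14.03 and 14.10 with IFN-gamma. At 3 h it read 14.17, 14.17 and 14.14 in mock, 14.14, 14.16 and 14.15 with IFN-alpha and 14.16, 14.18 and 14.17 with IFN-gamma. The groups overlap at both times in this probe set. The 3 h difference was 0.01 with IFN-gamma, with a 95% interval of -0.12 to 0.14 from the 3 h arrays alone, and -0.01 with IFN-alpha (-0.14 to 0.12). Over the 4 kept probe sets the 3 h differences ran from -0.0083 to 0.030 with IFN-gamma and from -0.093 to 0.027 with IFN-alpha.

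Rps6, the substrate of the S6 kinases downstream of TOR, read 10.09, 10.15 and 10.06 in 3 h mock, 10.06, 10.05 and 10.07 with IFN-alpha and 10.09, 10.10 and 10.32 with IFN-gamma. The interval of the difference at 3 h was -0.22 to 0.14 with IFN-alpha and -0.11 to 0.25 with IFN-gamma. Rps27l, a p53 target and paralog of Rps27, read 11.48, 11.56 and 11.47 in 3 h mock, 11.38, 11.46 and 11.48 with IFN-alpha and 11.53, 11.54 and 11.59 with IFN-gamma. For Rpl39l, a paralog best known from germ cells, the 3 h differences were 0.02 and 0.10. None of these groups was set wholly apart from mock.

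Rpl27a was the one gene with differences above 0.5 in interferon comparisons, and its arrays scattered widely. Its kept probe set 1437729_at read 6.27, 8.97, 7.47 and 6.25 in 1 h mock, 5.86, 8.43, 6.95 and 5.27 with IFN-alpha and 6.55, 8.55, 6.86 and 4.74 with IFN-gamma. At 3 h it read 6.31, 6.44 and 7.19 in mock, 6.73, 6.79 and 7.43 with IFN-alpha and 6.70, 6.81 and 7.46 with IFN-gamma. Replicate 2 is the highest in each of these 3 groups at 1 h and replicate 3 in each at 3 h, and the groups overlap. Compared by replicate number, IFN-alpha read below mock on each 1 h array, and both interferons read above mock on each 3 h array. IFN-gamma at 1 h read above mock in replicate 1 and below it in the others. The SEs that follow are from the fit without the replicate block. With the block none of these differences from mock was called. The 1 h differences were -0.61 with IFN-alpha and -0.56 with IFN-gamma (SE 0.74 for each), and the 3 h differences 0.34 for both (SE 0.85), with an adjusted p of 1 in limma. Without the arrays of wide actin gap the 1 h differences of Rpl27a were -0.63 and -0.61.

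Both interferons were also set against each other and across time. IFN-alpha minus IFN-gamma gave no called probe set at 1 h (0.363% of all) or 3 h (1.68%), with medians of 0.04 and -0.02 over the 43 genes. Without the arrays of wide actin gap the 1 h median was 0.0074, again with no call (0.451% of all). At 3 h, 2 probe sets were wholly higher and 9 wholly lower with IFN-alpha than with IFN-gamma (8.82% and 10.7% of all). The change of the response from 1 h to 3 h gave no call for IFN-alpha (0.953% of all) or IFN-gamma (0.829%), with medians of -0.04 and 0.01. Without those arrays the latter were -0.02 and 0.0038, with no call (1.17% of all in each). None of the 91 had an unadjusted p under 0.05 in these 4 comparisons, against 2.86%, 4.32%, 2.35% and 3.11% of all probe sets in that order. These counts come from the same pooled fit and share its limit. For Rpl27a the response to IFN-alpha was 0.95 higher at 3 h than at 1 h (SE 1.12, adjusted p = 1 in limma). With the replicate number as a block in a fit of those arrays alone the same difference had an adjusted p of 0.0197 in limma, and with the block over all groups it was not called.

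**Figure D5:**
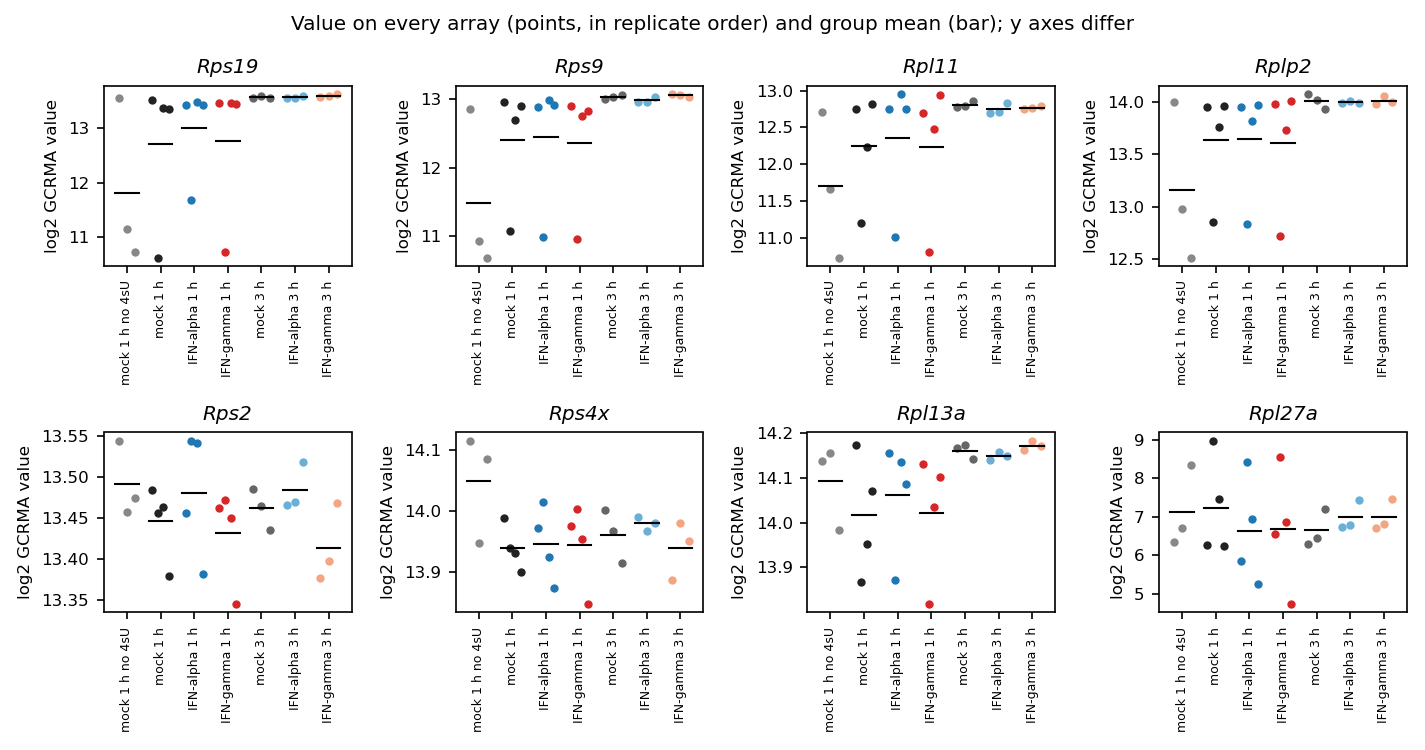
Log2 values on each array for 8 ribosomal protein genes, with points in replicate order within each of the 7 groups on the x axis and bars at group means; y axes differ between panels. Rps19, Rps9, Rpl11 and Rplp2 have low points at replicate 2 of each 1 h group, and also at replicate 3 without 4sU. Each gene is drawn by its kept probe set with the highest mean. By these, Rps2, Rps4x and Rpl13a (1455485_x_at) keep to narrow ranges, and Rpl27a scatters from 4.74 to 8.97.

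Labelling with 4sU was compared in mock cells at 1 h, with 4 arrays against 3 without it. No ribosomal protein probe set was called (0.0311% of all), and 3 of 91 had an unadjusted p under 0.05 (7% of all). These were Rpl39, higher by 0.31 (SE 0.15), Rps24 1428530_x_at, higher by 1.08 (SE 0.48), and Rpl35 1454833_at, at -1.01 (SE 0.34), with limma adjusted p-values of 0.691, 0.672 and 0.501. Rpl35 1454833_at sat at the floor, with a mean of 3.82 and 7 of 24 arrays above 4. Other probe sets of both genes went the other way: Rpl35 1416243_a_at stood at 0.59 and Rps24 1455195_at at -0.40. The median over the 43 genes was 0.09, and Rps9 and Rps19 stood at 0.91 each, though the kept probe sets of Rps9 ran from 0.0013 to 0.91. Rps27l, the p53 target, stood at 0.21 (SE 0.24). Of the 3 arrays without 4sU, 2 have the wide actin gap. Without all such arrays the comparison is of 3 arrays against 1, which is assumed to vary like the other groups, and the median was -0.07, with no call (0.0104% of all). Rps9 then stood at -0.01, Rps19 at -0.13, Rps24 1428530_x_at at 0.08, Rpl35 1454833_at at -0.76, Rpl39 at 0.07 and Rps27l 1435429_x_at at -0.08.

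Rpl39, a small protein that lines the exit tunnel of the large subunit, read 4.77, 4.06 and 4.81 without 4sU and 4.82, 4.92, 4.83 and 4.87 with it. Its only probe set was dim, with a mean of 4.80 over all arrays, close to the floor of 4. Those groups do not overlap, as for 1.14% of all probe sets in that direction, but the gap between 4.81 and 4.82 is narrow and the low mean rests on the array at 4.06. No probe set was wholly lower with 4sU (2.9% of all).

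Mock cells at 3 h were compared with mock cells at 1 h. Time since the fresh medium, the dose of 4sU and its window changed together, so their parts cannot be told apart. Of the 91 probe sets, 1 was called, lower at 3 h, where 11.3% of all probe sets were called (5.45% higher and 5.88% lower). An unadjusted p under 0.05 was reached by 3 of 91, against 28% of all. The groups did not overlap for 16 probe sets higher and 7 lower at 3 h (18.9% and 13.1% of all). The median over the 43 genes was 0.13, against 0.06 over all kept probe sets, and 22 genes lay within 0.2, against 29.5% of all. That share, too, is not matched for signal level.

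The called probe set was 1436384_at of Rps10. It read 6.36, 5.89, 5.62 and 5.38 at 1 h and 4.54, 4.78 and 4.99 at 3 h, so that the groups do not overlap, and fell by 1.04 (SE 0.25, limma adjusted p = 0.0107). The other 5 probe sets of Rps10 differed by -0.06 to 0.92 and were not called. 1434854_a_at, the highest in mean, read 13.97, 12.30, 13.49 and 13.98 at 1 h and 13.85, 13.83 and 13.90 at 3 h, with an overlap. The call on 1436384_at was lost without the first 3 h mock array (limma adjusted p = 0.0695), and in a fit of the 7 compared arrays alone (0.0653).

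Rps6 read 10.36, 10.46, 10.36 and 10.30 at 1 h and 10.09, 10.15 and 10.06 at 3 h. All 3 h values lie below all 1 h values, but the difference of -0.27 (SE 0.11) had a limma adjusted p of 0.13. The dim Rps20 probe set 1450417_a_at averaged 6.07 at 1 h and 5.09 at 3 h (limma adjusted p = 0.0534). Rps19 stood 0.85 higher at 3 h, Rpl41, the shortest protein of the ribosome, 0.74, Rps9 0.62, Rps27 0.61 and Rpl11 0.56, with SEs of 0.40 to 0.74 and no call. Over all kept probe sets of a gene the difference ran from -0.28 to 0.62 for Rps9 and from -0.06 to 0.74 for Rpl41. The 1 h means of all these genes hold the mock array with the wide actin gap. Without the 5 such arrays Rps19 stood at 0.15, Rpl41 at 0.30, Rps9 at 0.18, Rps27 at 0.29 and Rpl11 at 0.21, and the median over the 43 genes was 0.05. Then 3 of 91 probe sets were called, where 18.2% of all were: Rps27l 1423254_x_at, higher by 0.44, and Rps10 1436384_at and Rps20 1450417_a_at, at -1.02 and -0.87, with limma adjusted p-values of 0.0137, 0.0265 and 0.0401.

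Other genes of the translation machinery were taken from fixed lists. In the 4 interferon comparisons with mock, no gene passed the test among 54 measured ribosome biogenesis genes, 34 other translation genes or 76 mitochondrial ribosomal proteins. Of 21 genes on the TOR pathway list, 1 did: Mycn, a Myc-family transcription factor that drives ribosome synthesis and not itself a TOR pathway component. It fell by 1.35 with IFN-gamma at 1 h (SE 0.25, limma adjusted p = 0.00684), and by 1.48 without the arrays of wide actin gap (0.00837).

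Between mock cells of 3 h and 1 h each of these lists held calls, beside 5.45% of all probe sets higher and 5.88% lower and a median of 0.06 over all. Of ribosome biogenesis genes, 3 of 54 rose, Polr1a and Polr1b, subunits of RNA polymerase I, by 0.80 and 0.66 and Bysl, needed for small-subunit assembly, by 0.69. Rrs1 and Ddx10 fell by 0.58 and 0.54. The median of that list was 0.40. Of mitochondrial ribosomal proteins, which serve a separate ribosome, 8 of 76 rose, among them Mrpl49 by 0.96, Mrpl13 by 0.77 and Mrps5 by 0.71, with a list median of 0.45. Of other translation genes Eif3b, an initiation factor subunit, rose by 0.50, as the single call of 34. On the TOR pathway list Mycn fell by 0.84, as the single call of 21. The lists were not tested against each other. Without the arrays of wide actin gap 9 ribosome biogenesis genes were higher and 2 lower, and 22 mitochondrial ribosomal proteins were higher, beside 10.6% of all probe sets higher and 7.6% lower. Their list medians were then 0.26 and 0.34, Polr1b was not called (0.53, limma adjusted p = 0.0759), and the calls on Polr1a, Bysl, Rrs1, Ddx10, Eif3b, Mycn, Mrpl49, Mrpl13 and Mrps5 held.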

How the data were processed

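The table holds log2 values that the authors made with GCRMA, per the submitters' processing notes, which corrects background and summarises probes to probe sets. Whether all 24 arrays were normalised in a single run is not given in the sources used here. Members and gene lists were chosen with earlier results of these data known. Groups came from the labels. After leaving out 64 control probe sets, probe sets above a log2 value of 4 on at least 3 arrays were kept, 19305 in all. limma 3.58.1 in R 4.3.3 fitted a mean per group over all 24 arrays (17 residual degrees of freedom), and p-values of 10 comparisons were adjusted by Benjamini-Hochberg over all kept probe sets, with calls at an adjusted p under 0.05. The test was tried on simulated data for all 24 arrays and 19305 probe sets, with independent normal noise. Each probe set kept its mean over all arrays and its spread within groups, pooled over the 7 groups. That spread includes the arrays of wide actin gap. Changes were added to the IFN-alpha arrays of 3 h and tested against mock of 3 h. Of log2 changes of 1, 38% were recovered, and of changes of 2, 88%, with 7 false calls. Precision is limited by the number of arrays and by the spread between them.

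Genes were named by rule: those called, the 3 largest rises and falls in each interferon comparison with mock, a fixed set, the 5 with the widest spread, and the 5 whose probe sets disagreed most. Of that fixed set of 27 genes, 10 had no probe set of a single symbol. 1 probe set, of Rps4l, was left out as a pseudogene by RefSeq. Replicate numbers were checked as pairs. Deviations of same-numbered arrays from group means correlated at 0.128 to 0.914 over the 6 pairs of treatment groups within a time. At 1 h each array of these pairs correlated best with the one of its own number. At 3 h replicate 1 did not, for IFN-gamma against mock (0.128) and IFN-alpha against IFN-gamma (0.297), so pairing is less clear there. The correlations were -0.232 to 0.127 between mock times and 0.0809 to 0.802 for 4sU. Alternatives were another scaling, another filter or floor, array weights, the replicate block, fits of fewer arrays, other gene values and leaving out each array.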

Additional observations from a re-analysis of the deposited data

Results flagged for a closer look

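In groups of 4 arrays, 21 of 93 values tested stood apart from the other 3 by Dixon's criterion. Chance alone passes it in about 1 of 20 independent groups, but the count cannot be set against that share. Some of the genes were named for their wide spread in these same data, and the values come from the same few arrays. All 21 were on replicate 2 of a 1 h group, and they came from 12 genes and the median over all 43. These are the arrays with the wide beta-actin gap, whose part was not tested. In mock cells Rps15 read 11.98 against a mean of 13.41 on the other 3 arrays, Rps19 10.63 against 13.42 and Rps9 11.08 against 12.84. With IFN-alpha, 11 genes stood apart. Rps19 read 11.68 against 13.45, Rps9 10.99 against 12.93, Rpl11 11.01 against 12.81, Rps10 12.71 against 13.84 and Rplp2 12.83 against 13.91. Smaller gaps were those of Rps15 (12.36 against 13.40), Rps27l (10.42 against 11.38), Rps27 (5.47 against 6.17), Rps24 (12.86 against 13.55) and Rplp0 (13.67 against 14.15). Rpl14 alone stood apart upward, at 9.59 against 9.17. With IFN-gamma, Rps19 read 10.73 against 13.46, Rpl41 11.26 against 13.32, Rps9 10.96 against 12.82, Rps15 11.63 against 13.43, Rps24 12.59 against 13.55 and Rplp0 13.57 against 14.11. The median deviation of the 43 genes from their own means was -0.36 on that array, against 0.05 on the other 3.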

How the results depend on the processing

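In the 4 comparisons of an interferon with mock and the 2 between interferons, every alternative tried left 0 ribosomal protein probe sets called, also with each array left out in turn. The replicate block left these counts at 0, in a fit of the arrays compared and over all groups. In the change of the IFN-alpha response with time, a fit of the arrays compared with the replicate block called 1 probe set (Rpl27a, beside 1.64% of all probe sets); the cause was not tested. Between mock times, where the numbers do not pair arrays, the count of 1 of 91 became 12 (9 higher and 3 lower) with the replicate block over all groups, where 40.7% of all probe sets were called, 3 with array weights (23.5% of all), 3 without the arrays of wide actin gap (18.2% of all; an alternative chosen after seeing the data, as was a fit of the arrays of 1 time), and 0 in a fit of the arrays compared, without the block (4.26% of all) or with it (0.269%). Leaving out an array gave 0 (without the first 3 h mock array, 5.1% of all) to 2 (without the first 1 h mock array, 13.9%). The cause was not tested. Medians over the 43 genes moved by more than the spread between arrays in few cases. With each array centred on its median, IFN-alpha against mock at 3 h gave 0.019 and IFN-alpha against IFN-gamma at 3 h gave 0.0028. Leaving out an array, the latter ran from -0.040 (without the first IFN-gamma array) to -0.0099. At 1 h, leaving out an array moved the median from -0.06 to 0.11 with IFN-alpha and from -0.12 to 0.11 with IFN-gamma. For single named genes, 5446 alternatives were run: 5393 stayed on the same side of the call threshold and, where uncalled, within 1 SE of the main value, 46 uncalled values moved further, 4 gained and 3 lost a call. Of all 5446, 618 changed sign, none of them a called value. Dim probe sets, and bright ones near the top of the range, limit what small changes can be seen.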
